A study of Mus musculus with 20 samples.

Results

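The 6 genes described here belong to lipoprotein uptake and its control in mouse liver: the receptors Vldlr, Lrp1 and Scarb1, the lipase Lipc, and the regulators Mylip and Sort1. They were taken by symbol from the deposited gene counts, where all 6 of 6 were found among 55487 gene identifiers, and each had from 246 to 109880 counts in every one of the 20 libraries. The mice were female C57BL/6J, given chow or a high-fat diet (HFD) from 8 weeks of age and sampled at 28 weeks. The HFD mice had 10 weeks of HFD and then 10 weeks of HFD in which fishmeal, salmon filet or beef supplied part of the protein, so that all 3 HFD groups carry the same earlier diet and differ from chow in more than the protein source. By the authors' account the 3 HFDs also differed in cholesterol, highest with fishmeal, and in added soybean oil. The HFD groups thus differ from each other in more than the protein source too. Each library came from the liver of 1 mouse, and each group had 5 mice. Mouse 31 is beef-fed in the header of the count table and salmon filet-fed in the sample labels. The header's groups were used first, since they give 5 mice in each group, and values with mouse 31 as labelled (6 salmon filet, 4 beef) follow where they concern a result.

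Lipoproteins carry cholesterol and triglyceride in plasma, and the liver takes them up through surface receptors, proteoglycans and lipases. Vldlr binds triglyceride-rich particles and is normally abundant in muscle and adipose tissue and low in liver, Lrp1 is a large endocytic receptor for chylomicron remnants, and Scarb1 takes cholesterol ester from HDL. Lipc, hepatic lipase, hydrolyses lipids of remnants and HDL at the cell surface. Mylip is a ubiquitin ligase that marks receptors of the lipoprotein receptor family for degradation and is a target of the sterol-sensing LXR receptors, and Sort1 (sortilin) is a sorting receptor of the Golgi and endosomes that binds apolipoprotein B and other ligands.

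The libraries held 42526234 to 70266136 counts on genes. Protein coding genes took 93.2% to 95.6% of them in 19 libraries and 84.3% in beef mouse 35. The tissue label matched its markers, with summed levels of 7 hepatocyte genes from 88883 to 118650 CPM (counts per gene scaled to the size of the library), whereas the summed level of 5 adipocyte genes was 0 to 0.215 CPM and the leptin gene Lep had 0 counts in all 20 libraries. A gene's level in whole liver cannot separate fewer cells of a type from less RNA per cell, and these cannot be told apart here. The labels do not say at what time of day each mouse was sampled. A score of the circadian clock was made from log2 CPM taken relative to each gene's mean over all 20 libraries. It was the mean of 9 genes of 1 phase minus that of 4 genes of the opposite phase. The score ran from -2.84 to -0.90 in chow and from -2.10 to 3.59 in HFD libraries (log2 scale), so it moved with the diet.

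On GRCm38 the genes lie at chr19:27216484-27254231 (Vldlr, plus strand), chr10:127538161-127621148 (Lrp1, minus strand), chr5:125277087-125341094 (Scarb1, minus strand), chr13:45389742-45412022 (Mylip, plus strand), chr3:108284082-108361511 (Sort1, plus strand) and chr9:70798128-70952226 (Lipc, minus strand). Their exons cover 10068, 17717, 8500, 3233, 7569 and 2150 bases in the same order. Genes annotated within or across these loci had at most 40 counts in any library. Only the antisense gene Gm12523 shared exon bases with a member, 338 bases of Sort1, and it had 0 counts in every library.

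RefSeq promoters on GRCm38.p6, from 250 bases before to 50 after a start, were held for Vldlr, Lrp1, Mylip and Lipc. The promoters of Vldlr, which was called higher under fishmeal, and of Mylip, an LXR target, are shown since the results below turn on the first and set the second beside other LXR targets. Capitals mark matches to 8 motifs searched on both strands, and a match on the minus strand stands as its reverse complement. No 2 of the matches shown overlap. CCAAT, the CCAAT box, is in 37.4% of 32851 mouse promoters and GGGCGG, the GC box, in 35.7%. TATAAA, the TATA box, is in 13.6% and AGGTCA, a nuclear receptor half-site, in 16.3%. The others were CACGTG, an E-box (7.15%), the sterol regulatory element (0.0913%), TGATGNAAT, an ATF4 composite site (0.965%), and TTATGNAA, a D-box (3.38%).
Vldlr, second start, chr19:27216770-27217069, plus strand: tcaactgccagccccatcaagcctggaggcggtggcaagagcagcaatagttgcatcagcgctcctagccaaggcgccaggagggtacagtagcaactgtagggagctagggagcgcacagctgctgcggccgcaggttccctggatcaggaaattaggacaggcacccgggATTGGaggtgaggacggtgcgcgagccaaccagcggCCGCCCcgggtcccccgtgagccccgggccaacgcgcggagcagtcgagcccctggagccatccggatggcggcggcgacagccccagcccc
Mylip, chr13:45389492-45389791, plus strand: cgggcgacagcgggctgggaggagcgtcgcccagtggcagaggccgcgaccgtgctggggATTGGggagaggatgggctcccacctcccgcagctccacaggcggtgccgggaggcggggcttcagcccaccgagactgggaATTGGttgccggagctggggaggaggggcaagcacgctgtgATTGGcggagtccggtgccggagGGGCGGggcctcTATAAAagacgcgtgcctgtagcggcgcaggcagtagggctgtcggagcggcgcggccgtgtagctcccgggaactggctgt
The Mylip window held a TATA box at -32, a GC box at -44 and 3 CCAAT boxes at -190, -108 and -67, counted from the start. The second Vldlr start had a CCAAT box at -78 and a GC box at -42, and the first Vldlr start, 43% GC against 68%, had none of the 8. The only half-sites in these windows were 2 of Lipc, at -88 and -76 of its first start. A match describes the letters of a window and no more.

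Per length of transcript (TPM, counts divided by gene length and scaled to the same sum in every library), Lipc had the highest level of the 6 and Sort1 the lowest. Mean TPM ± SD over 20 libraries was 253 ± 34.7 for Lipc, 156 ± 51.0 for Lrp1, 41.7 ± 7.45 for Scarb1, 8.14 ± 1.47 for Mylip, 5.50 ± 1.82 for Vldlr and 3.81 ± 1.46 for Sort1. Lrp1 was above Scarb1, and Scarb1 above Mylip, in 20 of 20 libraries with no overlap of their ranges. The other neighbours overlapped: Lipc was above Lrp1 in 18 libraries, Mylip above Vldlr in 18 and Vldlr above Sort1 in 17. The coefficient of variation of CPM was 12.5% for Lipc and 14.5% for Mylip, and 32.2% to 36.7% for Vldlr, Sort1 and Lrp1, so the liver levels of the lipase and the ligase varied least between mice.

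**Figure D1:**
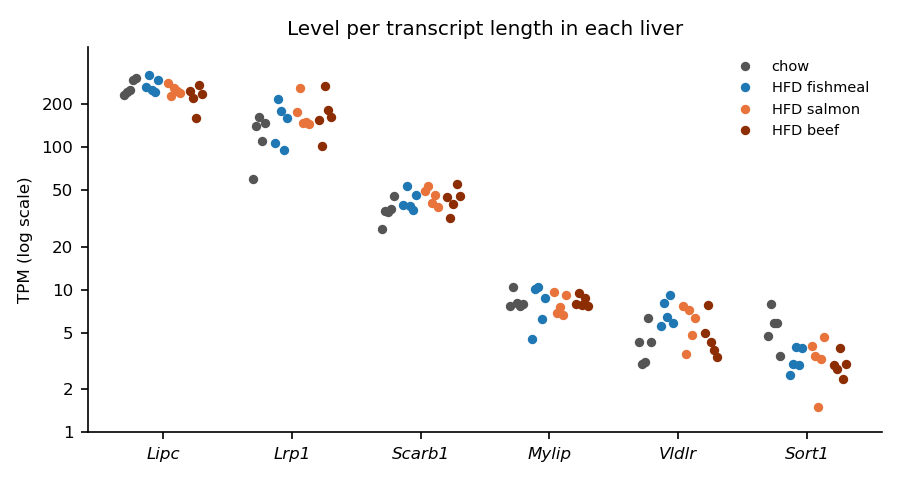
Level of each gene in TPM (log scale, vertical axis) in each of 20 livers, with 1 point per mouse coloured by diet and genes ordered by mean level. Lipc and Lrp1 lie highest and partly overlap, Scarb1 stands alone between 26.6 and 54.7 TPM, and Mylip, Vldlr and Sort1 lie lowest and overlap.

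The first comparison asked how the HFD groups together (15 mice) differed from chow (5 mice). Sort1 fell, and it was the only one of the 6 members to pass the test in edgeR (quasi-likelihood F-test, Benjamini-Hochberg adjusted p under 0.05). The background was 1669 of 17120 genes called, 9.75%, with 4.54% called higher and 5.21% lower, so 1 of 6 is not far from what all genes gave. Of the 6, 4 had an unadjusted p under 0.05, against 24.4% of all genes. The members' median log2 change was 0.17 and that of all genes tested 0.00.

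Sort1 was 14.3, 21.7, 18.1, 16.4 and 10.2 CPM in chow mice 1, 2, 5, 7 and 10. In the 15 HFD livers it ran from 4.67 through a median of 9.46 to 13.7 CPM. Every HFD liver was below the chow mean, and the ranges overlapped because chow mouse 10 lay at 10.2 CPM, among the HFD livers. Mean Sort1 was 9.73 ± 2.33 CPM in HFD and 16.1 ± 4.32 in chow, a log2 change of -0.73 (SE 0.172, 95% interval -1.09 to -0.38, adjusted p = 0.00834). The 3 HFD groups had means close to each other: 9.87 ± 1.33 CPM for fishmeal, 9.94 ± 3.24 for salmon filet and 9.39 ± 2.56 for beef (n = 5 each). Fishmeal mice 12, 13, 14, 16 and 20 had 9.20, 8.54, 11.5, 9.01 and 11.1 CPM, a narrow spread. Salmon filet mice 22, 23, 25, 26 and 27 had 11.3, 10.9, 4.67, 9.46 and 13.3 CPM, and mouse 25 was the lowest library of all with 246 counts. Beef mice 31, 32, 35, 39 and 40 had 8.69, 8.04, 13.7, 7.02 and 9.54 CPM, with the highest HFD value in mouse 35.

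Diet by diet, Sort1 did not pass the test in edgeR in groups of 5 against 5. Against chow it was -0.72 for fishmeal (SE 0.182, adjusted p = 0.0520), -0.70 for salmon filet (SE 0.254, adjusted p = 0.124) and -0.79 for beef (SE 0.214, adjusted p = 0.0707) in edgeR. Those comparisons share the 5 chow livers. Sort1 passed in 4 of 9 other settings for fishmeal, among them DESeq2 (adjusted p = 0.00947) and upper quartile scaling (adjusted p = 0.0499). For beef it passed in 2 of 10, DESeq2 (adjusted p = 0.0132) and the correction for GC content and gene length (adjusted p = 0.0307). With mouse 31 as labelled the values were -0.73 for salmon filet (adjusted p = 0.0916) and -0.76 for beef (adjusted p = 0.122). The call for all HFD groups was lost without chow mouse 2, the highest chow liver, where the change was -0.60 with an adjusted p of 0.0538 in edgeR. With the clock score as a covariate it was -0.71 with an adjusted p of 0.155, in a fit that called 319 genes in all. In the fits of single diets with that score the salmon filet change was -0.18 (adjusted p = 0.974), that of fishmeal -0.96 (adjusted p = 0.285) and that of beef -0.88 (adjusted p = 0.352).

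**Figure D2:**
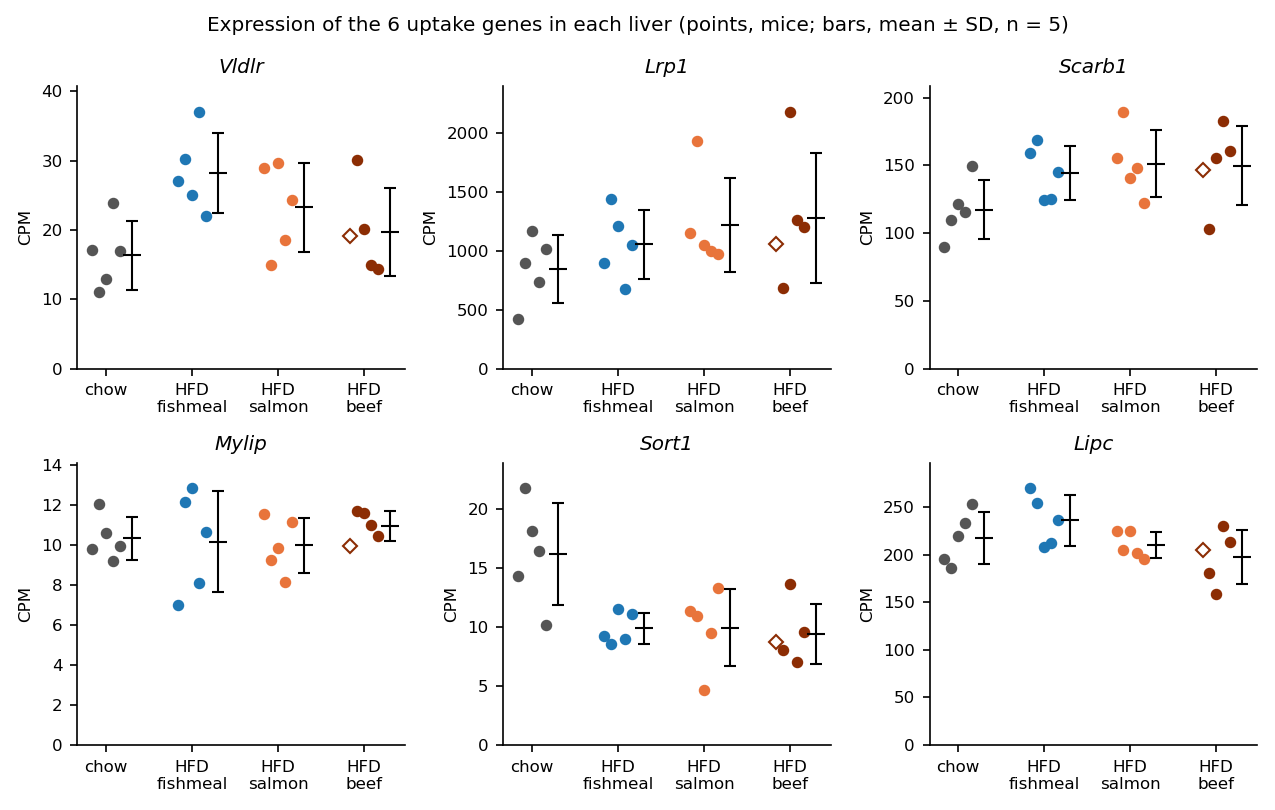
CPM of each of the 6 genes (vertical axes start at 0) in each liver by diet, with 1 point per mouse and the group mean ± SD (n = 5) beside it. The open diamond is mouse 31, beef in the header and salmon filet in the labels. Sort1 lies lower in the HFD groups, with 1 chow liver at 10.2 CPM among them, and Vldlr is highest with fishmeal.

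Vldlr was 17.1, 11, 12.9, 23.8 and 17 CPM in the 5 chow livers in the same order. Fishmeal mice 12, 13, 14, 16 and 20 had 27.0, 30.2, 25.0, 37.1 and 22.0 CPM. All 5 fishmeal livers were above the chow mean, and the ranges met only in chow mouse 7 and fishmeal mouse 20. The means were 28.3 ± 5.77 CPM with fishmeal and 16.3 ± 4.94 in chow, a log2 change of 0.78 (SE 0.197, 95% interval 0.36 to 1.21, adjusted p = 0.0499 in edgeR). Vldlr was thus the 1 member called of 6 in fishmeal against chow, where 556 of 16471 genes (3.38%) were called, 1.44% as higher. At an unadjusted p under 0.05 edgeR had 3 of 6 members there, beside 16.9% of all genes. The Vldlr call sat on the threshold. It was lost in 9 of 10 fits that left out a mouse (change 0.67 to 0.96, adjusted p 0.0176 to 0.115) and held only without chow mouse 7, the highest chow liver. It held in 6 of 9 other settings, with the lowest adjusted p under DESeq2 (0.80, adjusted p = 0.00531). It was lost with upper quartile scaling (0.78, adjusted p = 0.0543), with limma on the TPM values (0.63, adjusted p = 0.101) and with the clock score as a covariate (1.2, adjusted p = 0.0914).

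With salmon filet and beef the mean Vldlr level was 23.3 ± 6.40 and 19.7 ± 6.32 CPM, and neither change from chow passed the test. It was 28.9, 15, 29.7, 18.6 and 24.3 CPM in salmon filet mice 22, 23, 25, 26 and 27 (log2 change from chow 0.50, SE 0.224, adjusted p = 0.198). In beef mice 31, 32, 35, 39 and 40 it was 19.2, 30.1, 20.1, 14.9 and 14.3 CPM (0.27, SE 0.236, adjusted p = 0.593). The difference between fishmeal and beef itself was 0.51 (SE 0.207, unadjusted p = 0.0282, adjusted p = 0.999), and that between fishmeal and salmon filet 0.28 (SE 0.190, adjusted p = 0.920), both from edgeR. Neither passed the test, so a response particular to fishmeal was not shown. Over all HFD groups Vldlr was 23.7 ± 6.77 CPM, 0.54 above chow (SE 0.206, adjusted p = 0.104), with 12 of 15 livers over the chow mean. With the clock score as a covariate that change was 0.84 (adjusted p = 0.0950).

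Scarb1 was 89.7, 110, 122, 116 and 149 CPM in chow, and 103 to 189.7 CPM with a median of 148 in the 15 HFD livers (means 117 ± 21.7 and 149 ± 23.3). In all, 14 of 15 HFD livers were above the chow mean, and the ranges overlapped widely. The change was small and of like size in each diet: 0.34 overall (SE 0.118, adjusted p = 0.0708), 0.30 for fishmeal (SE 0.137, adjusted p = 0.295), 0.36 for salmon filet (SE 0.138, adjusted p = 0.141) and 0.35 for beef (SE 0.157, adjusted p = 0.265). It did not pass the test in edgeR, while DESeq2 called the overall change (0.34, adjusted p = 0.0449). It passed in edgeR without chow mouse 10 (0.43, adjusted p = 0.0321), the highest chow liver, and without beef mouse 32 (0.37, adjusted p = 0.0323), the lowest HFD liver.

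Lrp1 varied widely between mice of the same diet. Its chow values were 420, 897, 1165, 731 and 1017 CPM, and its HFD values 677 to 2183 CPM with a median of 1059. The extremes over all livers were chow mouse 1 at 420 CPM and beef mouse 35 at 2183 CPM, and the diets overlapped. The means were 1185 ± 409 CPM in HFD and 846 ± 287 in chow, a log2 change of 0.48 (SE 0.234, 95% interval 0.00 to 0.97, adjusted p = 0.204). By diet the means were 1055 ± 292 CPM for fishmeal, 1222 ± 401 for salmon filet and 1278 ± 553 for beef, with changes from chow of 0.31 (SE 0.255, adjusted p = 0.604), 0.53 (SE 0.259, adjusted p = 0.238) and 0.59 (SE 0.301, adjusted p = 0.326). In the salmon filet group mouse 23 stood apart with 1930 CPM, where the others had 977 to 1149. The change for all HFD groups was 0.39 without beef mouse 35 (adjusted p = 0.252), 0.32 without chow mouse 1, and with the clock score as a covariate 0.16 (adjusted p = 0.888).

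The level of Lrp1, whose longest transcript is 57.9% GC, moved with a property of the libraries. A GC score was taken as the median log2 level, relative to all libraries, of 952 protein coding genes with at least 58% GC. It was -0.60 in chow mouse 1 and -0.52 in beef mouse 32, and 0.55 in beef mouse 35, the library with the lowest share of counts on protein coding genes. The range was -0.60 to 0.099 in chow and -0.52 to 0.55 in HFD. Within the 15 HFD libraries Lrp1 followed the score with Pearson r = 0.81 (permutation p = 0.00044, adjusted p = 0.00528 over 12 relations) and Spearman rho = 0.63 (permutation p = 0.0136, adjusted p = 0.0814). Without the 2 libraries farthest from the median score, r was 0.65 (n = 13). Scarb1 had r = 0.73 (permutation p = 0.00195, adjusted p = 0.0117) and rho = 0.66 (permutation p = 0.00842, adjusted p = 0.0814), and r = 0.48 without those 2.

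Many genes shared this relation: 17.9% of 11568 protein coding genes had a higher rho with the score than Lrp1 and 15.9% a higher one than Scarb1. The other 4 members had r between -0.35 and 0.11 with the score, with permutation p from 0.207 to 0.877. The longest transcript of Scarb1 is 48.5% GC, and those of Vldlr, Lipc, Mylip and Sort1 are 43.8%, 48.8%, 49.6% and 51.0%. The relation thus did not run in the order of the members' own GC contents, and its cause was not tested. A fit chosen after seeing the data corrected every library for its dependence on the GC content and length of genes. In it the change against chow was 0.38 for Lrp1 (adjusted p = 0.102), 0.35 for Scarb1 (adjusted p = 0.0744) and -0.75 for Sort1 (adjusted p = 0.00386). Sort1 was thus as low under this correction. For the clock score within the HFD libraries, no relation with a member passed the test (r from -0.40 to 0.34, permutation p from 0.139 to 0.815).

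**Figure D3:**
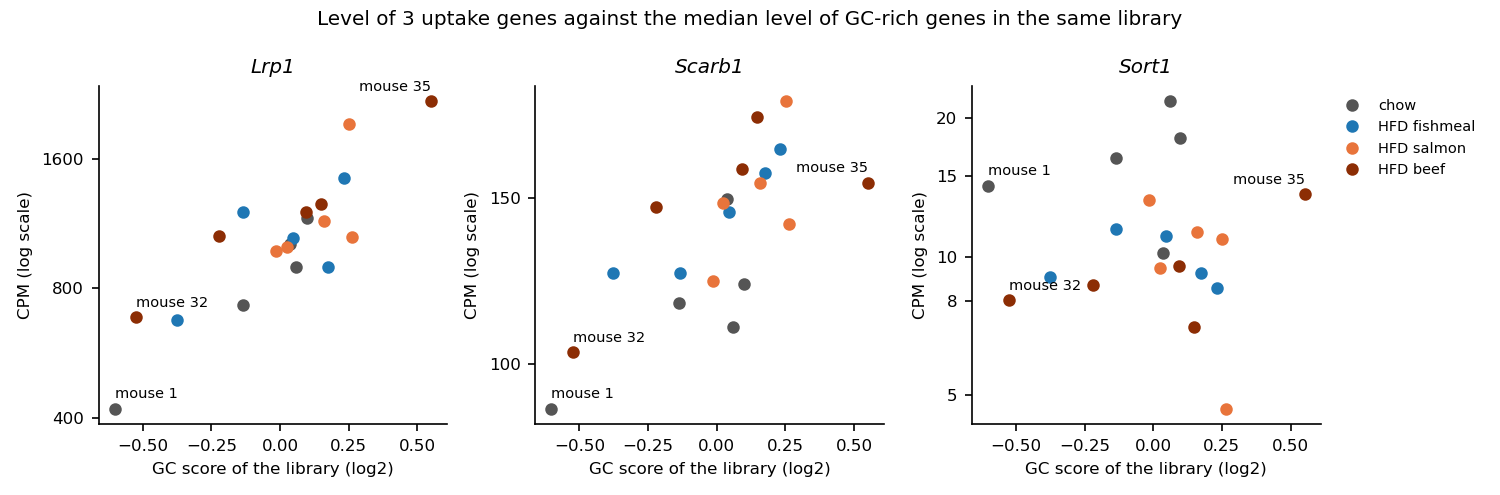
CPM of Lrp1, Scarb1 and Sort1 (log scale, vertical axes) against the GC score of the same library (log2, horizontal axis), with 1 point per mouse coloured by diet and mice 1, 32 and 35 named. Lrp1 and Scarb1 rise with the score from mouse 1 to the right, and Sort1 does not.

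The changes of Mylip, the ligase, and Lipc, the lipase, were the smallest of the 6. Mylip was 9.82, 12.1, 10.6, 9.19 and 9.98 CPM in chow and 7.02 to 12.9 CPM with a median of 10.6 in HFD, a log2 change of 0.00 (SE 0.112, 95% interval -0.23 to 0.23, adjusted p = 1.00). Lipc was 195, 186, 220, 234 and 253 CPM in chow and 158 to 270.01 CPM with a median of 212 in HFD, a change of -0.02 (SE 0.0963, 95% interval -0.22 to 0.18, adjusted p = 0.919). By diet the Mylip changes from chow were -0.03, -0.06 and 0.08 for fishmeal, salmon filet and beef, and those of Lipc 0.11, -0.05 and -0.14. Between HFD groups the widest Lipc difference was between fishmeal (236 ± 26.8 CPM) and beef (198 ± 28.1 CPM), 0.26 on the log2 scale (SE 0.124, unadjusted p = 0.0585, adjusted p = 0.999), with 5 of 5 fishmeal livers above the beef mean.

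**Figure D4:**
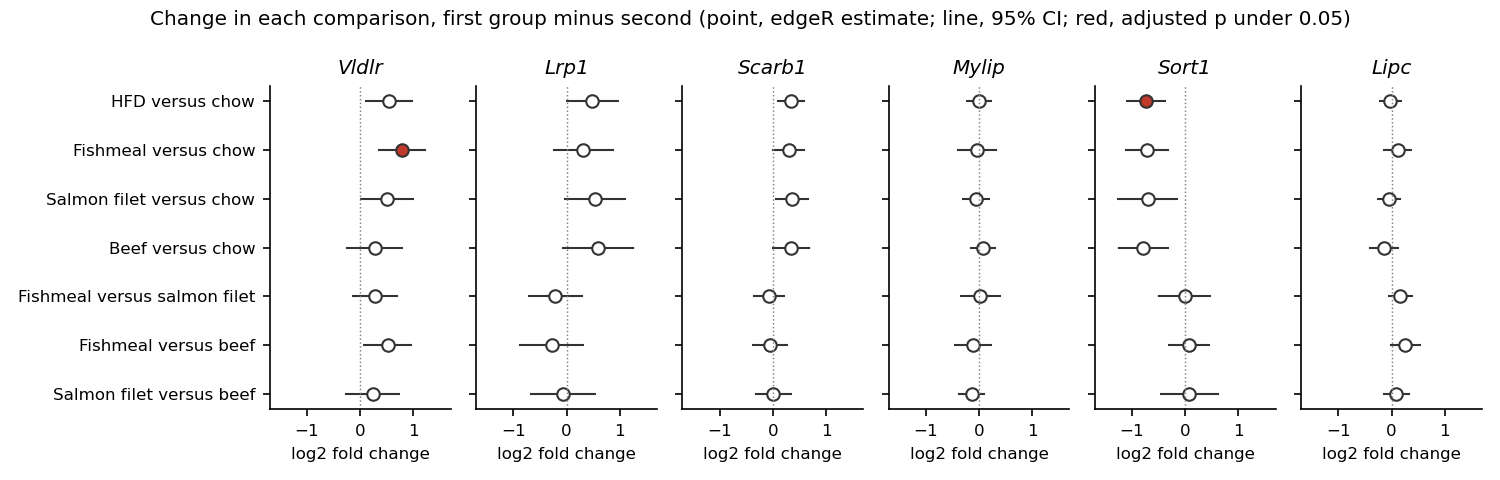
Log2 fold change of each gene (horizontal axes) in each of 7 comparisons (rows), with the edgeR estimate as a point and its 95% interval as a line, filled red where the adjusted p was under 0.05. Red points are Sort1 in all HFD groups against chow and Vldlr in fishmeal against chow. The 3 lower rows compare HFD groups with each other and hold no red point.

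Among HFD groups 0 of 6 members passed the test in each of the 3 comparisons, in edgeR and in DESeq2. At an unadjusted p under 0.05 edgeR had 1 member, Vldlr, between fishmeal and beef, beside 2.59% of all genes, and 0 between fishmeal and salmon filet, beside 5.16%. Of 16494 genes 28 (0.170%) were called between fishmeal and salmon filet, 4 of 16304 (0.0245%) between fishmeal and beef, and 0 of 16212 between salmon filet and beef, which is 0.00%, where edgeR gave 796 genes (4.91%) an unadjusted p under 0.05 and DESeq2 called 4. In salmon filet against chow 728 of 16475 genes (4.42%) and in beef against chow 499 of 16339 (3.05%) were called, with 0 members in each. At an unadjusted p under 0.05, edgeR had 3 of 6 members in salmon filet against chow, beside 23.8% of all genes, and 2 of 6 in beef against chow, beside 18.4%. DESeq2 called 1711 genes and 0 members in the first, and 1179 genes and 1 member, Sort1, in the second. For Sort1 the intervals of the differences between HFD groups were -0.49 to 0.47 (fishmeal against salmon filet), -0.30 to 0.44 (fishmeal against beef) and -0.46 to 0.62 (salmon filet against beef). With mouse 31 as labelled, edgeR called 4.46% of genes between salmon filet and chow, 2.48% between beef and chow, 0.157% between fishmeal and salmon filet, 0.00607% between fishmeal and beef and 0.00% between salmon filet and beef, again with 0 members.

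**Figure D5:**
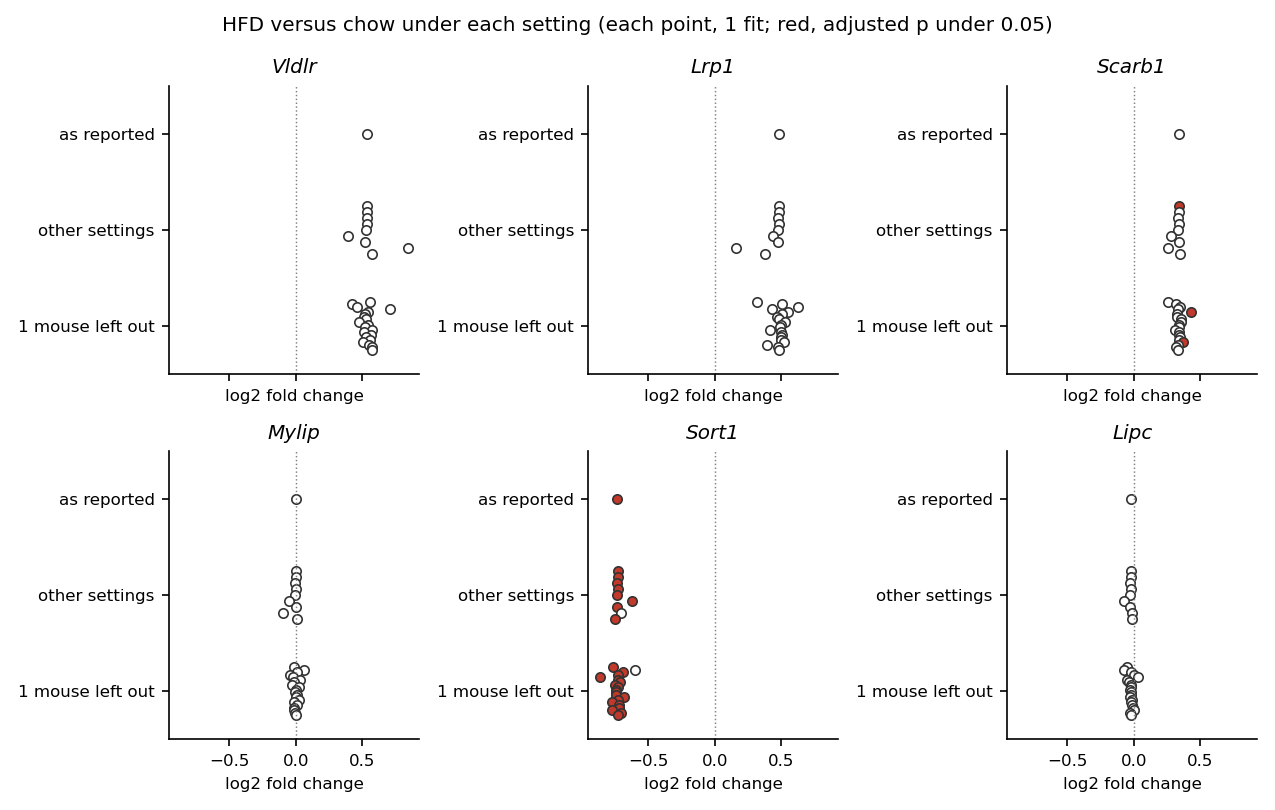
Log2 fold change of each gene between HFD and chow (horizontal axes) as reported, under 9 other settings and with each of 20 mice left out, with 1 point per fit, filled red where the adjusted p was under 0.05. Sort1 stayed between -0.87 and -0.60 and lost the threshold in 2 fits, Scarb1 reached it in 3, and Vldlr, Lrp1, Mylip and Lipc in none.

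The genes around these 6 were read from lists. Of 17 other receptors tested (19 listed), 1 was called in HFD against chow, beside 9.75% of all genes. Cd36, a scavenger receptor that takes up fatty acids, rose from 101.3 ± 30.4 to 198 ± 47.4 CPM (log2 change 0.96, SE 0.203, adjusted p = 0.00391). Of 21 adaptors, chaperones and recycling factors, 0 rose and 2 fell, beside 5.21% of all genes called lower. They were Sort1 and Dab2, a clathrin adaptor of the receptor family (24.3 ± 4.34 to 18.0 ± 3.0 CPM, -0.44, SE 0.120, adjusted p = 0.0229). The medians over these lists were 0.04 and 0.05, beside 0.00 for all genes. None of 8 genes of the ubiquitin control of receptors was called (median -0.07), beside 9.75% of all genes. All 8 had an unadjusted p of 0.05 or more, where 24.4% of all genes were under it.

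Of 11 heparan sulfate genes, which build or trim the chains that hold remnants at the hepatocyte surface, 2 rose and 0 fell (median 0.11). Of all genes 4.54% were called higher and 5.21% lower. At an unadjusted p under 0.05 edgeR had 5 of the 11, beside 24.4% of all genes. The polymerase Ext1 went from 30.8 ± 2.00 to 37.9 ± 2.92 CPM with no overlap of the groups (0.29, SE 0.0664, adjusted p = 0.00650), where 1.58% of all genes did not overlap. The sulfatase Sulf2 went from 13.3 ± 2.07 to 18.8 ± 3.24 CPM (0.49, SE 0.124, adjusted p = 0.0141). Of 13 lipases and remodelling factors tested, edgeR called 0 (median 0.00), beside 9.75% of all genes, with 3 at an unadjusted p under 0.05.

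Targets of transcription factors that act on Mylip or Vldlr were read in the same way. Of 11 genes listed as LXR targets edgeR called 3 higher in HFD, beside 4.54% of all genes, and 0 lower (median 0.28). They were Srebf1, the lipogenic transcription factor (1.42, SE 0.177, adjusted p = 2.22e-05), and the sterol exporters Abcg8 (1.02, SE 0.196, adjusted p = 0.00187) and Abcg5 (0.85, SE 0.161, adjusted p = 0.00149). The others did not pass. Abca1 (0.12, adjusted p = 0.509) and Abcg1 (0.09, adjusted p = 0.767) changed little. Scd1 (-0.49, adjusted p = 0.450) and Pltp (-0.94, adjusted p = 0.0960) were lower, and Fasn, Lpcat3, Nr1h2 and Nr1h3 were higher by 0.25 to 0.39. Nr1h2 and Nr1h3 encode the LXR receptors themselves and are counted in this list and its median. Mylip, also an LXR target, had a change of 0.00 in the same fit, and whether LXR acts on it in these livers was not tested. Vldlr is a known target of PPAR alpha and of ATF4. Of 14 other PPAR alpha targets (median 0.21) Vnn1 rose (1.08, SE 0.277, adjusted p = 0.0156) and Pdk4 fell (-1.29, SE 0.318, adjusted p = 0.0119), which is 2 of 14 beside the 9.75% called of all genes. Of 12 ATF4 and ER stress genes (median -0.17), Chac1 (2.22, adjusted p = 0.00626) and Trib3 (1.04, adjusted p = 0.0484) rose, and Dnajb9 (-0.58, adjusted p = 0.0347) and Atf4 (-0.42, adjusted p = 0.0347) fell. These calls are for all HFD groups, where Vldlr itself was not called. In fishmeal against chow, where Vldlr was called, edgeR called 0 of the 14 PPAR alpha targets higher, beside 1.44% of all genes, and 1 lower. At an unadjusted p under 0.05 it had 4 of the 14, beside 16.9% of all genes, and the median change of this list was 0.20. Of the 12 ATF4 and ER stress genes edgeR called 0 there, beside 3.38% of all genes. At an unadjusted p under 0.05 it had 6 of the 12, and the median change of this list was -0.14. Whether PPAR alpha or ATF4 acts on Vldlr in these livers was not tested.

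Markers of other cells moved beside the members and their part in the results was not tested. Of all genes edgeR called 4.54% higher and 5.21% lower in HFD. Of 7 lymphocyte markers 6 fell with HFD, with a summed level of 5.92 to 13.3 CPM in chow and 2.31 to 5.94 in HFD. Among them were Cd79a (-1.40, adjusted p = 0.0137) and Ms4a1 (-1.38, adjusted p = 0.000360). Of 8 sinusoidal endothelial markers 1 fell, Clec4g (-0.29, adjusted p = 0.00758), with summed levels of 247 to 287 CPM in chow and 195 to 286 in HFD, and 1 of 5 cholangiocyte markers, Sox9 (-0.61, adjusted p = 0.0301, summed 42.2 to 78.5 and 31.8 to 91.2 CPM). Of red blood cell markers 1 of 5 rose, Alas2 (summed 73.6 to 212 CPM in chow and 84.5 to 482 in HFD). Of exocrine pancreas markers 1 of the 2 tested rose, Cela1 (summed 8.69 to 11.2 and 10.8 to 26.2 CPM). Most of that sum was Cela1 itself (mean 9.53 CPM in chow and 16.3 in HFD), and the mean of Cela2a was lower in HFD (0.185 and 0.121 CPM). Cpa1, Cpb1, Pnlip, Prss2 and Ctrb1 were each at 0 in 17 to 19 libraries, and Amy2a5 in all 20. Neither of the 2 neutrophil markers tested was called (0.976 to 2.08 and 0.263 to 2.30 CPM), and no adipocyte marker was tested. None of 8 Kupffer cell (198 to 498 CPM in chow, 196 to 391 in HFD), 8 stellate cell (382 to 472 and 338 to 528) and 7 hepatocyte markers was called by edgeR, with 2, 0 and 2 at an unadjusted p under 0.05. The clock list moved widely, with 8 of 9 high-phase genes called higher (Dbp 4.70, Ciart 3.29 and Per3 2.62). Of 4 low-phase genes Cry1 (-0.92) and Clock (-0.45) were called lower. Arntl (mean 37.0 CPM in chow and 17.9 in HFD) and Npas2 (13.6 and 6.27 CPM) were lower too, without a call.

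The genes whose levels over 20 libraries were most like each member's were taken among 11567 protein coding genes with a mean of at least 1 CPM, as a description, since the libraries share diet, depth and base composition. For Sort1 they were Peli3, P4ha1 and Smo (Spearman rho 0.75, 0.74 and 0.74), the weakest likeness of the 6. For Vldlr they were Hao2 (0.84), with a mean of 22.5 CPM in chow and 66.2 in HFD libraries, Rtn4 (0.81) and Cyp2a22 (0.79). For Lrp1 they included Sbno2 (0.95) and Tnrc18 (0.94), with GC contents of 59.1% and 61.2%. Scarb1 was most like Bcl2l1, Lrg1 and Tm4sf4 (0.90, 0.90 and 0.88), Mylip like Sash1, Abcc5 and Hip1 (0.81 each), and Lipc like the mitochondrial enzymes Idh2 (0.82) and Lonp1 (0.80) and the antioxidant enzyme Gpx1 (0.81).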

How the data were processed

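Liver RNA of 20 mice was sequenced, 1 library per mouse, after strand-specific mRNA preparation. The authors trimmed, mapped (HISAT2 1.2.1) and counted the reads (featureCounts 1.4.6-p1). The deposited values are raw counts per gene and, in a second table, TPM made by the authors, scaled to gene length and library size. The strand setting and the treatment of reads that fit several genes are not given in the sources used here. The sources print GRCh38 for the genome. Positions here are from GENCODE M21 on GRCm38. The 6 genes and all lists were chosen with earlier results of these data known. Some genes are not reported here.

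Groups were compared with edgeR 4.0 in R 4.3 (TMM, minimum count of 10 in filterByExpr, 2-sided quasi-likelihood tests, Benjamini-Hochberg over all genes tested, called at an adjusted p under 0.05). CPM use TMM factors, and log2 CPM a prior count of 2. Values are mean ± SD, and the p-values measure spread between mice. Alternatives were DESeq2 1.42, limma 3.58 on log2(TPM + 1) for genes whose mean TPM reached 0.5, other scalings and filters, a fit on all 4 groups, the clock score as covariate, mouse 31 as labelled and each mouse left out. The script was tested on simulated data. Named genes are the 6, up to 3 called genes in each direction per list in HFD against chow, and the 3 most alike per member. Libraries of 1 group differed beyond counting noise in each of the 40 pairs (chi-square per gene 31.9 to 414), so none was counted as a repeat. Permutation tests used 100000 two-sided resamples. Cetp and Tf of the lists had no match.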

Additional observations from a re-analysis of the deposited data

Results flagged for a closer look

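Salmon filet mouse 23 had 1930 CPM of Lrp1, where the other salmon filet livers had 977 to 1149 CPM. It stood apart from its group by a gap of 0.820 of the group's range, over Dixon's critical value of 0.71 for 5 livers, and over 0.625 for 6 livers when mouse 31 is counted with salmon filet. These were 2 of 36 group and gene combinations looked at, where chance alone gives about 1 in 20 for each. Both flags are the same value of mouse 23. The 36 hold salmon filet and beef livers under both groupings, so they are not separate looks. The GC score of this library was 0.251, among the 3 highest, and its part in the value was not tested.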

How the results depend on the processing

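For all HFD groups against chow, Sort1 kept its direction in 29 of 29 other fits and passed the test in 27. Its change was -0.71 with the clock score as covariate (adjusted p = 0.155) and -0.87 to -0.60 with each mouse left out (adjusted p 0.00304 to 0.0538, lost without chow mouse 2). Scarb1 passed under DESeq2 (0.34) and, of fits without 1 mouse (0.26 to 0.43), without chow mouse 10 or beef mouse 32. Members called were 2 under DESeq2, 0 with the clock score and 0 to 2 with a mouse left out. Genes called were 319 to 2498 over the 9 other settings, beside 1669 in the first fit, and the lowest count was with the clock score. With a mouse left out they were 986 to 1939 (986, 1070 and 1049 without chow mice 1, 2 and 7). The change of Mylip, close to 0, was 0.0032 under DESeq2, 0.0021 with DESeq2 size factors, 0.0041 on genes with any count, 0.0082 with correction for GC content and length and -0.042 to 0.064 with a mouse left out, and that of Lipc -0.073 to 0.032. With a mouse left out, Vldlr was 0.42 to 0.71 and Lrp1 0.32 to 0.62.

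Fishmeal against chow gave 1198 genes under DESeq2, 367 under limma, 868 in a fit of all 4 groups, 50 with the clock score, 1024 with correction for GC content and length and 288 to 685 with a mouse left out. Members called were 2 under DESeq2, on genes with any count and with the correction, 0 under limma and with the clock score (where Vldlr was 1.2), and 0 to 1 with a mouse left out. Upper quartile scaling called Sort1 in place of Vldlr (adjusted p = 0.0543 for Vldlr). The change of Lrp1 was -0.031 with the clock score, and that of Mylip -0.13 to 0.087 with a mouse left out. Salmon filet against chow gave 1711 genes under DESeq2, 376 under limma, 21 with the clock score and 208 to 641 with a mouse left out, where Mylip was -0.11 to 0.0083 and Lipc -0.10 to 0.00021. Beef against chow gave 1179 genes under DESeq2, 315 under limma, 826 in the fit of all groups, 18 with the clock score, 1093 with the correction and 198 to 445 with a mouse left out. It gave 1 member under DESeq2 and with the correction, and 0 to 1 with a mouse left out (Sort1, without chow mouse 10 or beef mouse 35).

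Between HFD groups the differences of Lrp1, Scarb1, Mylip and Sort1 changed sign under some settings. For fishmeal against salmon filet DESeq2 called 100 genes, and 14 to 41 were called with a mouse left out. Sort1 was 0.0032 under DESeq2, 0.00073 on genes with at least 10 counts, 0.0012 under limma, 0.0058 in the fit of all groups, 0.017 with the clock score, 0.029 with the correction and 0.033 with mouse 31 as labelled, and Mylip was -0.029 under limma. With a mouse left out Lrp1 was -0.35 to 0.014, Scarb1 -0.13 to 0.030, Mylip -0.074 to 0.14 and Sort1 -0.18 to 0.12. For fishmeal against beef 35 genes were called under DESeq2, 13 on genes with any count, 13 with the clock score, 9 with the correction, 1 with mouse 31 as labelled and 1 to 4 with a mouse left out. Scarb1 was 0.0032 with the correction, and with a mouse left out Lrp1 was -0.43 to 0.010, Scarb1 -0.15 to 0.030, Mylip -0.21 to 0.0011 and Sort1 -0.020 to 0.25. For salmon filet against beef 4 genes were called under DESeq2, 1 on genes with any count and 0 to 2 with a mouse left out. Lrp1 was 0.047 under limma and 0.019 with the clock score, Scarb1 -0.0036 with mouse 31 as labelled, and with a mouse left out Lrp1 was -0.29 to 0.21, Scarb1 -0.10 to 0.092 and Sort1 -0.047 to 0.25. The causes of these changes were not tested.

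No paired analysis was possible because each mouse number occurs in 1 group only. The lowest count of a member in any library was 246, for Sort1.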

Other observations

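The 3 LXR targets called higher over all HFD groups were also called in each HFD group against chow in edgeR. Srebf1 rose by a log2 change of 1.5 (fishmeal), 1.34 (salmon filet) and 1.41 (beef). Abcg5 rose by 1.06, 0.63 and 0.82, and Abcg8 by 1.19, 0.79 and 1.03. Cd36, of fatty acid uptake, was called with fishmeal (1.15, adjusted p = 0.00488) and with beef (0.96, adjusted p = 0.0407), and had a change of 0.74 with salmon filet that did not pass (adjusted p = 0.103, edgeR). The 3 comparisons share the chow livers, and differences between HFD groups in these genes were not called.

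Pltp, a phospholipid transfer protein of plasma, is on both the lipase and LXR lists and was chosen here after its values were seen. It fell with fishmeal by 1.65 on the log2 scale (SE 0.313, adjusted p = 0.0131, edgeR), while over all HFD groups its change was -0.94 (SE 0.351, adjusted p = 0.0960). Ces1d, a carboxylesterase on the lipase list, also chosen after its values were seen, had a log2 change of -0.37 over all HFD groups (SE 0.126, adjusted p = 0.0645), and 15 of 15 HFD livers lay below the mean of chow.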
